A study of Mus musculus with 6 samples.

Results

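Integrins are cell surface receptors for the extracellular matrix, each built from 1 alpha and 1 beta subunit, and the 10 genes described here encode subunits found in vessels and in the connective tissue around them. They were taken by symbol from the deposited table and are 7 alpha subunit genes (*Itga1*, *Itga3*, *Itga5*, *Itga6*, *Itga8*, *Itga9* and *Itgav*) and 3 beta subunit genes (*Itgb1*, *Itgb3* and *Itgb5*). All 10 were among the 14456 genes tested, of 24972 gene symbols in the table. The 16 other alpha and beta subunit genes in the table are given for comparison. The RNA-Seq measured mRNA of isolated lung endothelial cells (iLECs) from mice at postnatal day 7, with 3 control and 3 *Atp6ap2* iECKO libraries, which the study describes as biological replicates. The labels give the strain as C57BL/6, while the methods of the study describe its lines as kept on a mix of CD1 and C57BL/6. Control mice carried the floxed *Atp6ap2* allele alone, written PRR (Atp6ap2)fl/Y in the labels. *Atp6ap2* iECKO mice carried the same allele together with *Cdh5-CreERT2*, a tamoxifen-inducible Cre recombinase under the promoter of the endothelial gene *Cdh5*. All pups, controls included, received 100 µg of tamoxifen on each of P1 to P3. iLECs were pulled from digested lungs on magnetic beads coated with an antibody to CD31, so cells that stayed attached to endothelial cells could be carried along. In the study's immunoblot of purity, VE-cadherin was seen in iLECs alone, and smooth muscle actin and desmin were seen in the non-endothelial fraction. *Atp6ap2* encodes the (pro)renin receptor, an accessory protein of the vacuolar ATPase.

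The alpha subunit sets which matrix protein an integrin holds. The α1 subunit forms a collagen receptor, α3 and α6 form laminin receptors, α5, α8 and αv bind ligands with the Arg-Gly-Asp (RGD) sequence such as fibronectin, and α9 binds tenascin-C and related ligands. The α1, α3, α5, α6, α8 and α9 subunits all pair with β1, whereas αv pairs with β1, β3 or β5. In vessels, α5β1 and α6β1 are well known endothelial receptors for fibronectin and laminin, while α8β1 is known from smooth muscle, pericytes, and fibroblasts, where nephronectin is one of its ligands.

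The values are normalized counts, that is, estimated read counts that the authors' tool had scaled between libraries. They summed to between 26243878 and 28725799 per library, and as the number of reads behind them is unknown, the error given is the spread over 3 libraries. *Atp6ap2* itself was at 7490, 5815 and 5681 in controls and at 4220, 2336 and 1982 in *Atp6ap2* iECKO replicates 1 to 3, so every *Atp6ap2* iECKO library was below every control. In the limma fit this was a log2 fold change of -1.22 with a standard error of 0.26 and an adjusted *P* value of 0.0306. The endothelial genes *Pecam1*, which encodes CD31, and *Cdh5*, which encodes VE-cadherin, had 52750 ± 4488 and 92569 ± 17220 in controls and 57016 ± 1283 and 96010 ± 7186 in *Atp6ap2* iECKO libraries (SD, n = 3 each), so the endothelial label was borne out in all 6. *Xist*, transcribed from the inactive X chromosome, was at 37704 and 44402 in control replicates 1 and 2 and at 39442 and 47487 in *Atp6ap2* iECKO replicates 1 and 3, although the labels give a genotype with a Y chromosome for all 6. It was at 31.7 in control replicate 3 and 19.3 in *Atp6ap2* iECKO replicate 2. The study analysed male and female neonates, with female mice carrying 2 floxed alleles, but these 4 libraries with *Xist* went against the label of their own samples, and the integrin genes and gene lists were also compared with and without them.

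Of the 10 integrin genes, *Itga8* and *Itga1* fell in *Atp6ap2* iECKO iLECs and none rose, at an adjusted *P* value below 0.05 from limma. *Itga8* fell to 32.2% of the control level and *Itga1* to 47.0%, from the fitted log2 fold changes. The subunits typical of endothelium, *Itga5* and *Itga6*, and their common partner *Itgb1* were at 96.3%, 90.1% and 104.1% of control, and their genotypes overlapped. Among all genes tested, 4.97% were lower by this rule, 3.28% higher and, together, 8.25% in either direction. The median log2 fold change of the 10 genes was -0.04, against 0.00 for all genes tested. Without adjustment, *Itgb5* was lower too, making 3 of 10, where 12.3% of all genes tested were lower by that rule and 23.9% differed in either direction. The same 3 genes were lower in every *Atp6ap2* iECKO library than in any control, as were 15.0% of all genes tested, while 14.7% were higher in every one.

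**Figure D1:**
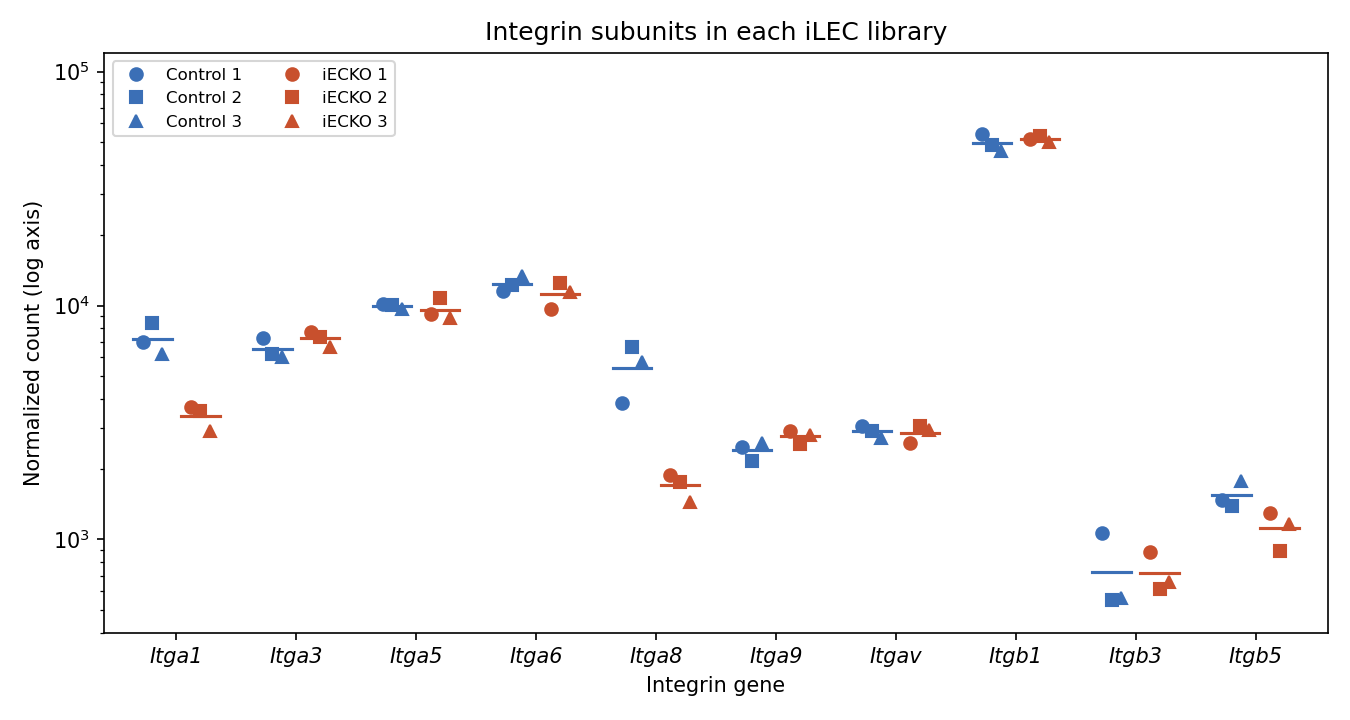
Normalized count (log axis) of each of the 10 integrin genes in the 3 control (blue) and 3 *Atp6ap2* iECKO (orange) libraries, with a line at each genotype's mean and a symbol for each replicate. *Itga1* and *Itga8* separate by genotype, with controls of *Itga8* between 3816 and 6625 and *Atp6ap2* iECKO libraries between 1449 and 1892, while *Itgb1* lies between 45886 and 54124 in all 6.

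*Itga8* encodes α8, the subunit known from mesenchymal cells. It had a normalized count of 3816, 6625 and 5713 in control replicates 1 to 3 and of 1892, 1764 and 1449 in *Atp6ap2* iECKO replicates 1 to 3. The lowest control, replicate 1, was still above the highest *Atp6ap2* iECKO library (SD 1433 in controls and 228 in *Atp6ap2* iECKO libraries). limma gave a log2 fold change of -1.63 with a standard error of 0.20 (adjusted *P* = 0.00848). Leaving out each library in turn gave log2 fold changes between -1.86 and -1.46, with an adjusted *P* value below 0.05 in all 6 fits. With the presence of *Xist* as a covariate the value was -1.63 (adjusted *P* = 0.0139 from limma). In the 4 libraries with *Xist* it was -1.60 and in the pair without *Xist* -1.69, the latter with no test. The adjusted *P* value over the 4 libraries with *Xist* was 0.125, and that fit called only 1 gene of the 14456. *Itga8* lies on chromosome 2 of GRCm38 from 12106632 to 12301922 on the minus strand, and its longest annotated transcript has 30 exons. Its exons share 372 bases with the antisense gene *E030013I19Rik*, whose mean in the table was 6.06. The library kit does not mark strand, so reads from the shared bases could not be assigned to either gene, but the antisense level was small beside that of *Itga8*.

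*Itga1* encodes α1, the collagen receptor subunit of capillaries, smooth muscle, and fibroblasts. It was at 6968, 8435 and 6218 in control replicates 1 to 3 and at 3684, 3551 and 2906 in *Atp6ap2* iECKO replicates 1 to 3. Here too the genotypes were fully separated. limma gave -1.09 on the log2 scale with a standard error of 0.14 (adjusted *P* = 0.00857), and the value lay between -1.19 and -0.97 with each library left out, with an adjusted *P* value below 0.05 in all 6 of those fits. It was -1.09 with *Xist* as a covariate, -1.23 in the 4 libraries with *Xist* (adjusted *P* = 0.125 from limma) and -0.81 in the pair without it. *Itga1* lies on chromosome 13 from 114953096 to 115101964 on the minus strand. Its exons share 685 bases with the same-strand protein-coding gene *Gm49395*, which was not analysed here, so reads from those bases could not be assigned to either gene. *Pelo* lies within its span with 0 shared exon bases and had a mean of 1030 and a log2 fold change of -0.27. Next to it on the same strand, from 114833081 to 114932100, lies *Itga2*, which encodes another collagen-binding subunit, α2. *Itga2* was at 7263, 7187 and 5807 in controls and at 6888, 7229 and 7501 in *Atp6ap2* iECKO libraries, so its genotypes overlapped (log2 fold change 0.10, 95% interval from -0.14 to 0.34). Within control libraries the log2 ratio of *Itga1* to *Itga2* ran from -0.06 to 0.23, within *Atp6ap2* iECKO libraries from -1.37 to -0.90, and the genotypes did not overlap. The two-sided exact permutation *P* value was 0.1, which is the lowest possible with 3 libraries a genotype.

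The 250 bases before the start of each gene that fell, read from RefSeq on GRCm38.p6, are shown beside those of *Itga5*, whose transcript level overlapped between genotypes. The *Itga8* window is chr2:12301945-12302194, that of *Itga1* is chr13:115101965-115102214 and that of *Itga5* is chr15:103366792-103367041, all on the minus strand and written from 5′ to 3′ of the gene. Capitals mark matches to the GC box GGGCGG on either strand.
Itga8: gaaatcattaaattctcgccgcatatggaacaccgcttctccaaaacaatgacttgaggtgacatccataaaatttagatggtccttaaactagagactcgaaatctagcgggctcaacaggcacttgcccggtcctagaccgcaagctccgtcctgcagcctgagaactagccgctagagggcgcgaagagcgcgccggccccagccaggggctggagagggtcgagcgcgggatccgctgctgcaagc
Itga1: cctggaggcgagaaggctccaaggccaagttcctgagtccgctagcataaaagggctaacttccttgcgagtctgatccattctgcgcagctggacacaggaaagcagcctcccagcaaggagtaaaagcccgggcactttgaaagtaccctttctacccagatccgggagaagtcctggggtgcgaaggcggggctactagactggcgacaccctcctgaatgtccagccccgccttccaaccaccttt
Itga5: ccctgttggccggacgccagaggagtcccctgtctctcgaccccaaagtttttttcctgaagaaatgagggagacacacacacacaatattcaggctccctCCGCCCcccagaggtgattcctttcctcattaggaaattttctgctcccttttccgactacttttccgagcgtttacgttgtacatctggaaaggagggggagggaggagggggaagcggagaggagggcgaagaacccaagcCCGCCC
The windows of *Itga8* and *Itga1* held no match to the GC box, and that of *Itga5* held 2, both on the strand opposite the gene. This motif was in 32.7% of 32851 promoter windows of the same length. Of the 10 genes, 8 had a window in the table, and *Itga3*, *Itgb1* and *Itgb5* had at least 1 match while *Itgav* and *Itga9* had none. The *Itga9* window, chr9:118711442-118711691, lies inside the annotated span of that gene, from 118606690 to 118901003 on the plus strand. It is therefore not the stretch before the annotated start, and 1 of the 2 *Itga3* windows, chr11:95069199-95069448, likewise lies inside its gene. None of the 3 sequences shown held TATAAA or GGAATG, the letters of a TATA box and a TEAD site, or a CArG box of SRF, on either strand. In all windows these were found in 12.4%, 12.6% and 1.47%. The windows were chosen after the values of the genes were known, and a match is no evidence that a factor binds.

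The endothelial laminin and fibronectin receptors were level between genotypes within the precision of 3 libraries each. *Itga6* was at 11578, 12294 and 13326 in controls and at 9694, 12521 and 11433 in *Atp6ap2* iECKO libraries, with a log2 fold change of -0.15 and a 95% interval from -0.41 to 0.11. *Itga5* was at 10177, 10023 and 9620 in controls and at 9194, 10753 and 8869 in *Atp6ap2* iECKO libraries (log2 fold change -0.05, 95% interval from -0.27 to 0.16). For both genes the *Atp6ap2* iECKO libraries lay on both sides of at least 1 control library, and the intervals leave out a fall as large as that of *Itga1*. In the 4 libraries with *Xist*, *Itga6* was at -0.18 and *Itga5* at -0.16 on the log2 scale, and in the pair without it at -0.09 and 0.16. *Itga3*, which encodes the laminin receptor subunit α3 of endothelium and epithelium, was at 7228, 6222 and 6022 in controls and at 7719, 7318 and 6650 in *Atp6ap2* iECKO libraries (log2 fold change 0.16, 95% interval from -0.07 to 0.39). *Itgb1*, the beta subunit that all 7 alpha subunits can use, was at 54124, 48499 and 45886 in controls and at 51703, 52811 and 49770 in *Atp6ap2* iECKO libraries (log2 fold change 0.06, 95% interval from -0.20 to 0.32). For neither gene did the genotypes separate. *Itga3* was at 0.10 in the libraries with *Xist* and 0.28 in the pair without, and *Itgb1* at -0.01 and 0.20.

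*Itgav* and its partners were less uniform. *Itgav* was at 3067, 2921 and 2708 in controls and at 2583, 3066 and 2933 in *Atp6ap2* iECKO libraries (log2 fold change -0.02, 95% interval from -0.23 to 0.19), with -0.12 in the libraries with *Xist* and 0.18 in the pair without. *Itgb5*, whose product binds vitronectin together with αv, was at 1477, 1387 and 1774 in controls and at 1297, 890 and 1168 in *Atp6ap2* iECKO libraries. These genotypes did not overlap, as for 29.8% of all genes tested, and the log2 fold change of -0.48 (standard error 0.16) had an adjusted *P* value of 0.109 from limma. With the replicate number as a block in limma, the adjusted *P* value of *Itgb5* was 0.0474. The difference was uneven over libraries, at -0.22 in the 4 with *Xist* and -0.99 in the pair without it. *Itgb3*, which encodes the β3 chain of endothelium and platelets, was at 1065, 552 and 560 in controls and at 888, 614 and 655 in *Atp6ap2* iECKO libraries (log2 fold change 0.04, 95% interval from -0.57 to 0.65), with -0.01 in the libraries with *Xist* and 0.13 in the pair without. Its highest value in each genotype was replicate 1, and 2 platelet genes were highest in the same libraries. *Itga2b*, the platelet partner of *Itgb3*, was at 1055 and 904 in those libraries and between 194.1 and 443.8 in the others. *Pf4*, which encodes platelet factor 4, was at 463.3 and 407.3 there and between 58.6 and 225.4 elsewhere. The 10 platelet markers summed to 2674, 1535 and 975 in controls and 2322, 1065 and 1314 in *Atp6ap2* iECKO libraries, with *Gp1ba* the most abundant at a mean of 843.3. *Gp1ba* did not follow that order and was highest in control replicate 2, at 1231. Of these markers 9 were tested and 0 passed in either direction (0 at an unadjusted *P* value below 0.05), where 8.25% (23.9%) of all genes tested did. The part of platelet RNA in the *Itgb3* values was not tested.

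*Itga9*, whose product is a receptor for tenascin-C and is known from lymphatic valves and smooth muscle, was at 2490, 2173 and 2589 in controls and at 2922, 2558 and 2796 in *Atp6ap2* iECKO libraries. The genotypes overlapped, with a log2 fold change of 0.19 (95% interval from -0.03 to 0.41). It was at 0.30 in the libraries with *Xist* and -0.02 in the pair without. The lymphatic marker *Prox1* was at 1689 ± 376 in controls and 1831 ± 360 in *Atp6ap2* iECKO libraries (SD, n = 3 each). In either direction, 0 of 7 lymphatic markers passed the test (2 had an unadjusted *P* value below 0.05, both higher). Among all genes tested, 8.25% passed and 23.9% had an unadjusted *P* value below 0.05.

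**Figure D2:**
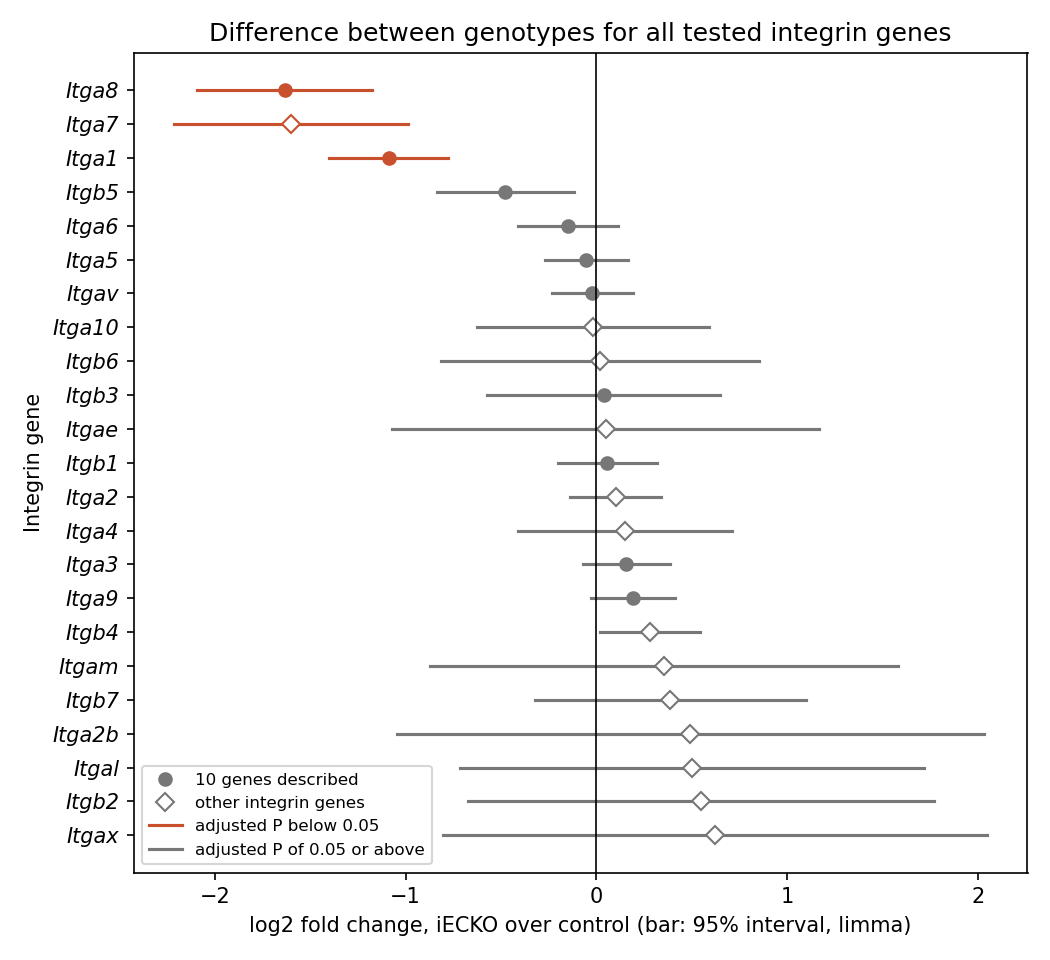
Log2 fold change of *Atp6ap2* iECKO over control (horizontal axis) with its 95% interval from limma for the 23 integrin genes tested, filled circles for the 10 genes described and open diamonds for the others, with orange for an adjusted *P* value below 0.05. *Itga8*, *Itga7* and *Itga1* lie apart at -1.63, -1.60 and -1.09, and the interval of the platelet gene *Itga2b*, from -1.04 to 2.03, is among the wide ones.

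Levels of different genes were compared per kilobase (kb) of annotated exon. *Itgb1* was far above all other members, with 12130 ± 1032 normalized counts per kb in controls (SD, n = 3). It was followed by *Itga5* at 2015 ± 58.3, *Itga6* at 1374 ± 97.4, *Itga3* at 1137 ± 113.2 and *Itga8* at 730.8 ± 194.5 per kb. The control ranges of these 5 genes did not overlap between neighbours. *Itgb5* (435.1 ± 57.1), *Itga1* (387.5 ± 60.6), *Itga9* (314.3 ± 28.3) and *Itgav* (269.8 ± 16.8) came next, each overlapping its neighbour in this order, and *Itgb3* was lowest at 123.0 ± 49.8. In *Atp6ap2* iECKO libraries *Itga8* ranked 8 of the 10 genes instead of 5, at 231.0 ± 30.9 per kb, and *Itga1* ranked 9 instead of 7, at 181.8 ± 22.4. With the longest transcript in place of all exons, *Itga6* came before *Itga5*, *Itga1* before *Itgb5* and *Itgav* before *Itga9* in controls, so the order of these pairs depended on the length used. In *Atp6ap2* iECKO libraries that length put *Itga1* (308.3 per kb) just above *Itga8* (292.8 per kb), the reverse of the order given by all exons.

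The make-up of the alpha subunit pool differed accordingly. Within each library, *Itga8* made up 8.47%, 14.1% and 12.5% of the summed levels per kb of the 7 alpha subunit genes in controls, and 4.79%, 4.06% and 3.77% in *Atp6ap2* iECKO libraries. The share of *Itga1* ran from 5.41% to 7.10% in controls, against 2.99% to 3.69% in *Atp6ap2* iECKO libraries. Neither gene's shares overlapped between genotypes. As shares sum to 100%, the sum of the other 5 had to be higher. *Itga5* went from 32.4% ± 1.20 to 35.4% ± 1.37 and *Itga3* from 18.3% ± 2.11 to 23.1% ± 1.86 (SD, n = 3 each), and *Itga9* from 5.05% ± 0.55 to 6.56% ± 0.80, all without overlap. The shares of *Itga6* (22.1% ± 1.59 and 22.6% ± 2.27) and *Itgav* (4.33% ± 0.30 and 4.85% ± 0.38) overlapped. The log2 ratio of *Itga8* to *Itga6* was -1.24 ± 0.35 in controls and -2.72 ± 0.32 in *Atp6ap2* iECKO libraries, and that of *Itga8* to *Itga5* was -0.92 ± 0.43 and -2.50 ± 0.19. These ratios do not depend on how libraries were scaled. Neither ratio overlapped between genotypes (exact permutation test, two-sided *P* = 0.1, and 0.144 adjusted over 23 such comparisons, 16 of which had that *P* value). The genotype difference of the *Itga8* to *Itga6* ratio was -1.42 in the 4 libraries with *Xist* and -1.60 in the pair without.

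**Figure D3:**
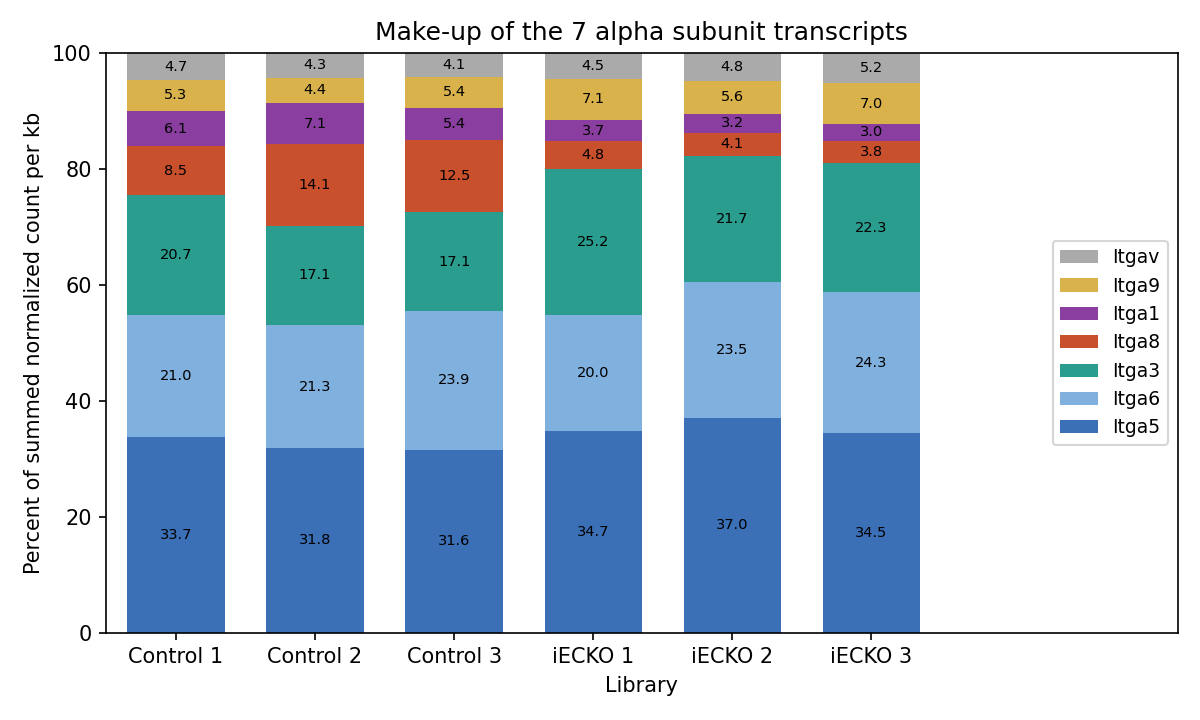
Share of each of the 7 alpha subunit genes (percent of their summed normalized count per kb of exon) in each library, as stacked bars with the percent printed. The *Itga8* band spans 8.47% to 14.1% in controls and 3.77% to 4.79% in *Atp6ap2* iECKO libraries.

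Among the 16 other integrin genes, 13 were tested. Of these, 1 was past the threshold, a share close to the 8.25% of all genes tested called in either direction. This was *Itga7*, which encodes a laminin receptor subunit of muscle and pericytes. It was at 144.8, 215.1 and 175.0 in controls and at 64.3, 42.8 and 68.9 in *Atp6ap2* iECKO libraries, with no overlap. In limma this came to -1.60 on the log2 scale with a standard error of 0.27 (adjusted *P* = 0.0152), and the call was lost without control replicate 3 (adjusted *P* = 0.0588) or *Atp6ap2* iECKO replicate 2 (0.0509). *Itga7* was at -1.39 in the 4 libraries with *Xist* (adjusted *P* = 0.156 from limma) and -2.01 in the pair without. The hemidesmosome subunit *Itgb4* was higher in each *Atp6ap2* iECKO library than in each control, at 747.7 ± 70.0 against 615.1 ± 44.2 (SD, n = 3 each), but its adjusted *P* value was 0.181. *Itga11*, *Itgad* and *Itgb8* were too low to test, with a highest value of 22.1, although *Itga11* and *Itgb8* are known from fibroblasts and perivascular cells.

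Genes of other cell types differed between the genotypes in the same libraries. Of 19 fibroblast markers 18 were tested, of which 13 were lower and 0 higher in *Atp6ap2* iECKO iLECs, with a median log2 fold change of -1.50. At an unadjusted *P* value below 0.05 there were 14 fibroblast markers, of which 13 were lower, against 12.3% of all genes tested lower by that rule. The other was *Pi16*, at 89.7, 58.4 and 45.0 in controls and 183.8, 94.3 and 142.3 in *Atp6ap2* iECKO libraries (log2 fold change 1.12, adjusted *P* = 0.0902 from limma). *Mfap5* was at 0.55 (adjusted *P* = 0.313). The fibroblast markers' sum was 45393, 64120 and 56984 in controls and 22514, 14905 and 13075 in *Atp6ap2* iECKO libraries. *Mfap4*, a microfibril protein gene, was the most abundant, *Pdgfra*, a defining receptor of lung fibroblasts, was at 1740 ± 360 and 692 ± 197 (SD, n = 3 each), and *Lum* and *Fap* were listed at 0 in at least 1 library. Among those past the threshold, *Twist2* apart, the lowest log2 fold changes were those of *Clec3b* (-1.89), *Mfap4* (-1.84) and *Dpt* (-1.78). *Twist2* had -2.41, from 23.2, 42.7 and 46.9 in controls and 3.7, 6.1 and 9.2 in *Atp6ap2* iECKO libraries. As only its controls met the filter, *Twist2* was left out of this order, but it is counted among the 13 lower. *Fap* also met the filter in its controls alone and did not pass (adjusted *P* = 0.230 from limma). Both genes are part of the 18 tested and of the median, so these lean towards lower values. Where 4.97% of all genes tested were lower, 11 of 18 mural markers, all tested, were lower and 0 higher, with a median of -1.48. Their sum was 16153, 23359 and 24207 in controls and 8620, 7016 and 6762 in *Atp6ap2* iECKO libraries, with *Pdgfrb*, the pericyte receptor for platelet-derived growth factor, the most abundant at 6642 ± 1241 and 2292 ± 514, and none at 0. Among those past the threshold, *Rgs5* (-1.94), *Cox4i2* (-1.81), *Des* (-1.69) and *Notch3* (-1.55), all known from pericytes or smooth muscle, had the lowest log2 fold changes. *Acta2*, which encodes smooth muscle actin, was at 1205 ± 476 and 431 ± 149, with an adjusted *P* value of 0.0504. Of 24 endothelial markers 0 passed (2 at an unadjusted *P* value below 0.05), where 8.25% and 23.9% of all genes tested did so in either direction. The endothelial markers had a median of 0.00, and their sum was 526343 ± 75979 and 512282 ± 45270 (SD, n = 3 each), led by *Cdh5*. In bulk libraries, fewer cells of a type and less RNA per cell cannot be told apart.

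*Itga8* and *Itga1* were also set against these sums within each library, where 3 against 3 libraries cannot give an exact *P* value below 0.1, so an overlap does not show that a gene and a sum moved alike. The log2 ratio of *Itga8* to the summed mural markers ran from -2.08 to -1.82 in controls and from -2.22 to -1.99 after *Atp6ap2* deletion, and the genotypes overlapped (exact permutation test, two-sided *P* = 0.3). To the summed fibroblast markers it ran from -3.57 to -3.27 in controls and from -3.57 to -3.08 after *Atp6ap2* deletion (exact permutation test, two-sided *P* = 0.6). To the summed endothelial markers it was -6.64 ± 0.59 in controls and -8.24 ± 0.07 in *Atp6ap2* iECKO libraries (SD, n = 3 each), with no overlap. For *Itga1*, the log2 ratio to the summed mural markers overlapped as well, from -1.96 to -1.21 in controls and from -1.23 to -0.98 after *Atp6ap2* deletion (exact permutation test, two-sided *P* = 0.3). Its log2 ratio to the summed fibroblast markers was higher in every *Atp6ap2* iECKO library (from -2.61 to -2.07) than in every control (from -3.20 to -2.70), while its ratio to the summed endothelial markers was lower, at -7.25 ± 0.07 against -6.19 ± 0.28 (SD, n = 3 each). Most of the fibroblast sum was *Mfap4*, at a mean of 39913 out of 55499 in controls and 11356 out of 16831 in *Atp6ap2* iECKO libraries. The ratios to that sum are therefore largely ratios to *Mfap4*. Among control libraries, replicate 1 was lowest for *Itga8*, for the fibroblast sum and for the mural sum. *Itga1* did not follow this, as its lowest control was replicate 3, at 6218 against 6968 in replicate 1. The part of mesenchymal RNA in the *Itga8* and *Itga1* values was not tested.

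**Figure D4:**
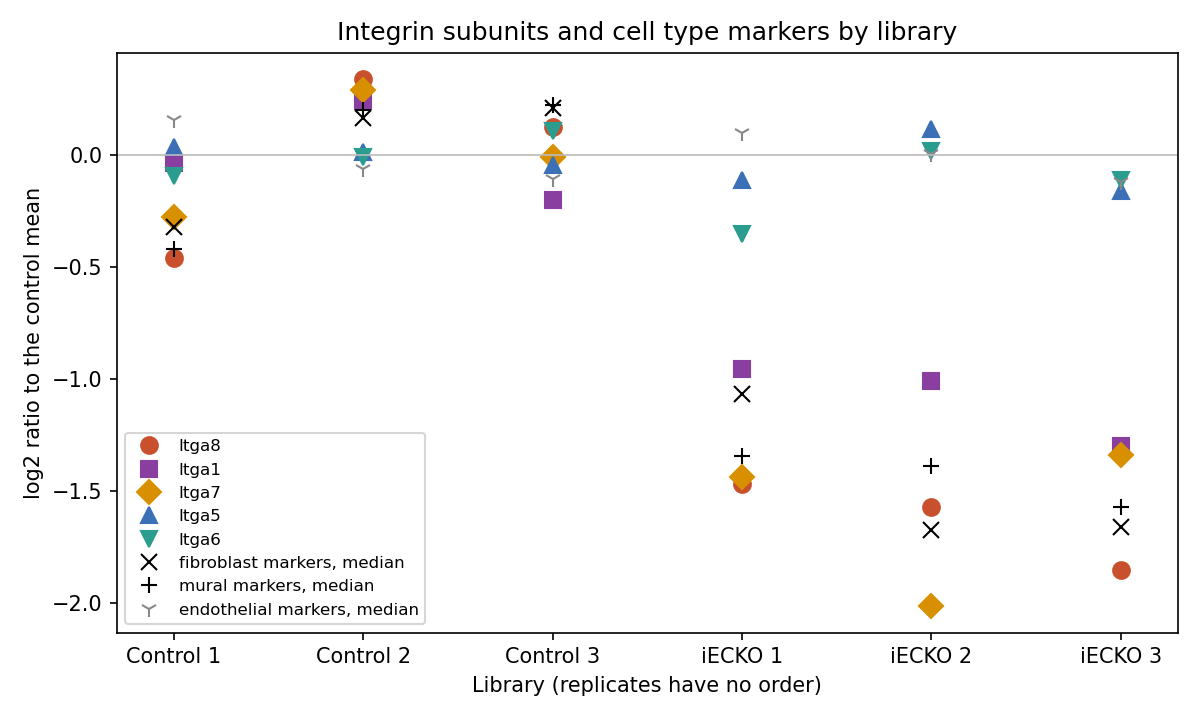
Log2 ratio to the control mean (vertical axis) in each of the 6 libraries for 5 integrin genes and for the median of the fibroblast, mural and endothelial marker lists. In *Atp6ap2* iECKO libraries *Itga8* lies between -1.86 and -1.47, the fibroblast median between -1.67 and -1.07 and the mural median between -1.57 and -1.34, while *Itga5* and *Itga6* lie between -0.35 and 0.11.

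The genes closest to *Itga8* in their profile over the 6 libraries, among 11320 other tested genes with a mean of at least 100, were *Col1a2*, *Ptges* and *Adh1*. Closeness was the root mean square difference of log2 values centred on each gene's mean, which was 0.05, 0.06 and 0.09. *Col1a2*, a chain of type I collagen, was at 13610, 23695 and 19436 in controls and at 6938, 5977 and 5397 in *Atp6ap2* iECKO libraries. Its lowest control replicate was that of *Itga8*, which the choice by profile favours. For *Itga1* they were *Adamts12*, *Creb3l1* and *Lag3*, at 0.09, 0.11 and 0.11.

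Several ligand genes of these integrins also fell. The 9 collagen genes whose products α1β1 or related receptors bind had a median log2 fold change of -1.41. Where 4.97% of all genes tested were lower, 7 of these fell and none rose. *Col1a1* (-1.62), *Col1a2* (-1.60) and *Col3a1* (-1.56), which encode fibrillar collagens, and *Col6a3* (-1.55), a chain of microfibrillar type VI collagen, were among them, whereas *Col4a1* and *Col4a2*, which encode the basement membrane collagen, had 0.13 and 0.09 with adjusted *P* values of 0.669 and 0.725. Of 4 genes for α9 ligands, 2 fell, where 4.97% of all genes tested were lower. *Tnc*, which encodes tenascin-C, fell by 1.61 on the log2 scale from 10729 ± 2909 to 3433 ± 32.2 (SD, n = 3 each, adjusted *P* = 0.00731 from limma) and *Svep1* by 1.12. The receptor gene *Itga9* did not pass the test. Of 15 RGD-type ligand genes, 7 fell and none rose, with a median of -0.59, where 4.97% of all genes tested were lower. With *Xist* as a covariate 5 of the 15 were lower, against 3.59% of all genes tested. *Nov*, which encodes a matricellular protein, was at 50.1, 54.2 and 37.8 in controls and at 116.3, 66.8 and 157.6 in *Atp6ap2* iECKO libraries, without overlap (log2 fold change 1.18, adjusted *P* = 0.0825 from limma). *Npnt*, which encodes nephronectin, the ligand of α8β1, was at 13992, 18834 and 17680 in controls and at 7670, 6500 and 5524 in *Atp6ap2* iECKO libraries. The log2 fold change of *Npnt* was -1.36 with a standard error of 0.15 (limma, adjusted *P* = 0.00831), so both the receptor subunit and this ligand fell. *Vtn* (-1.50), *Thbs1* (-1.48) and *Tgfb3* (-1.30), which encode vitronectin, thrombospondin 1, and a latent growth factor, also fell. *Fn1*, which encodes fibronectin, the ligand of α5β1, was the most abundant of the list and was at 62266, 77597 and 53510 in controls and at 45951, 34651 and 28337 in *Atp6ap2* iECKO libraries (log2 fold change -0.84, adjusted *P* = 0.0463 from limma). Of 11 laminin chain genes only *Lama2*, the chain of muscle and mesenchymal basement membranes, fell (-1.48, adjusted *P* = 0.00831 from limma). The list median was -0.13, and 4.97% of all genes tested were lower. *Lama4*, a main laminin chain of endothelial basement membranes, was at 0.30 (adjusted *P* = 0.235). *Lama5*, another chain of these membranes, was at 15488, 17556 and 17435 in controls and at 13635, 13339 and 11637 in *Atp6ap2* iECKO libraries, without overlap (log2 fold change -0.39, adjusted *P* = 0.0532 from limma).

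Inside the cell, integrins are switched on by talin and kindlin and tied to actin by a set of adapter proteins. Of 14 genes for activators and regulators 13 were tested and 0 passed (1 at an unadjusted *P* value below 0.05), with a median log2 fold change of -0.03. The talin gene *Tln1* had -0.07 and the kindlin gene *Fermt2* -0.28 (adjusted *P* = 0.712 and 0.216). Of 18 genes of the adhesion core, 3 fell and none rose, with a median of -0.16, where 4.97% of all genes tested were lower. At an unadjusted *P* value below 0.05 there were 8, of which 7 were lower, against 12.3% of all genes lower by that rule. The other was *Parvb*, which was higher in every *Atp6ap2* iECKO library than in every control (log2 fold change 0.31, adjusted *P* = 0.112 from limma). The 3 that fell were *Src* (-0.77), which encodes a tyrosine kinase, and the tensin genes *Tns1* (-0.65) and *Tns3* (-0.37), with adjusted *P* values of 0.0458, 0.0298 and 0.0480 from limma. With *Xist* as a covariate 1 of the 18 was lower, where 3.59% of all genes tested were. *Tns1* was at 19522 ± 862 in controls and 12576 ± 2367 in *Atp6ap2* iECKO libraries (SD, n = 3 each).

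**Figure D5:**
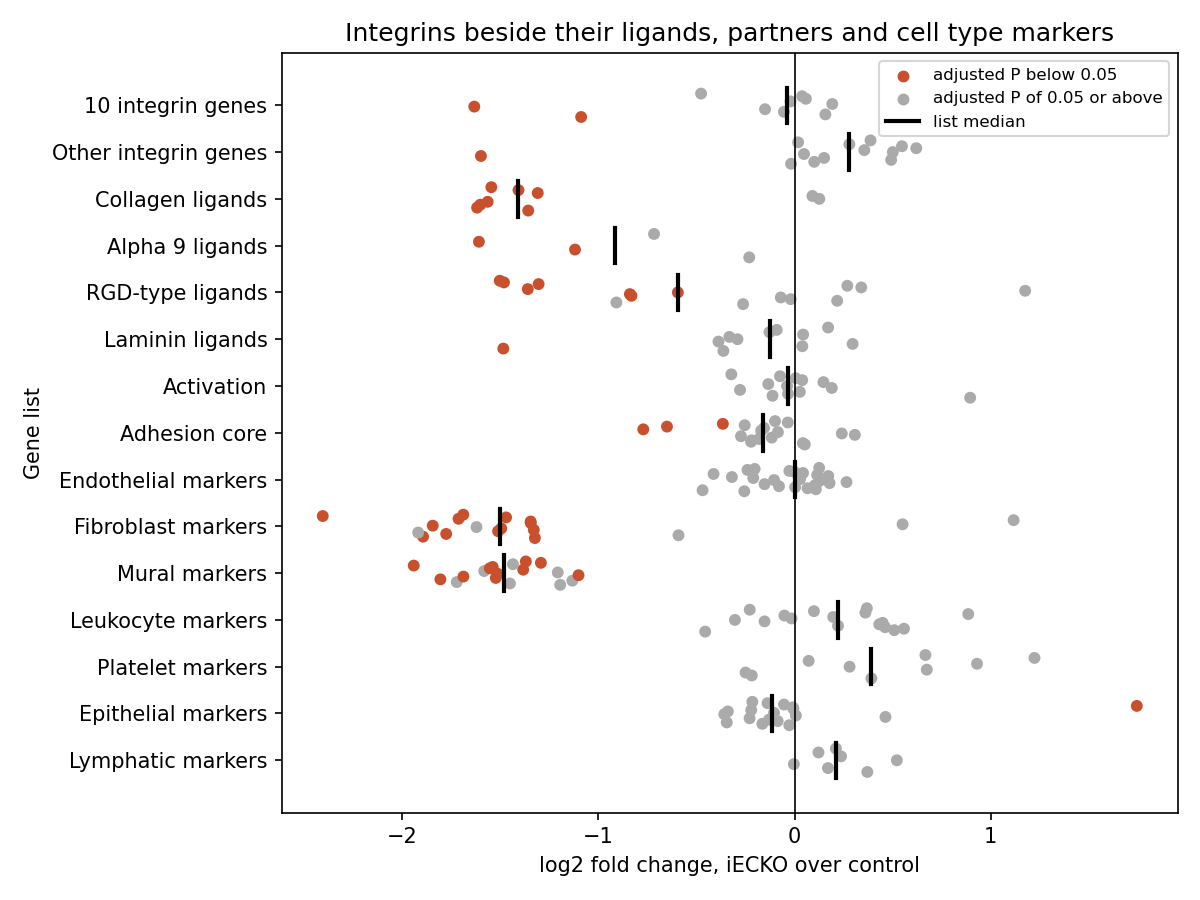
Log2 fold change of *Atp6ap2* iECKO over control (horizontal axis) for every tested gene of each list, orange where the adjusted *P* value was below 0.05, with a bar at the list median. The collagen ligands, fibroblast markers and mural markers have medians between -1.50 and -1.41, and the activation list and the endothelial markers have medians of -0.03 and 0.00.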

How the data were processed

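Lung endothelial mRNA in 6 libraries was analysed. The authors aligned reads to mm10 with the RNA-Seq alignment tool 2.0.1 and quantified genes with the RNA-Seq Differential Expression tool 1.0.1 of BaseSpace. The annotation is not given in the sources used here. The deposited table holds 1 normalized signal per gene and library. The labels call it raw counts, but the values are not whole, and the median ratio to the geometric mean was 1.004 in every library. Count models were therefore not used.

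Values were analysed as log2 of the normalized count plus 1, for genes at 10 or more in at least 3 libraries, with limma 3.58.1 in R 4.3.3 (mean-variance trend, all 6 libraries, no covariate) and Benjamini-Hochberg adjustment over 14456 genes. Fold changes refer to that scale. Single values were compared with exact permutation tests (SciPy 1.17.1). Coordinates and exon lengths came from GENCODE M21 (GRCm38), which 98.1% of symbols matched, and promoter windows from RefSeq. Figures were drawn with matplotlib 3.10.9.

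The members and lists were chosen with earlier results of these data known, by role (receptors, ligands, activators, adhesion core) or as markers of cell types. Named genes were all 10 integrin genes, other integrin genes past the threshold, up to 4 genes past it in each list by size of change, defining markers, and the 3 nearest profiles to each member past it. Genes named beyond that rule were chosen after their values were seen. Alternatives were other pseudocounts, filters, scalings and variance models, the replicate number, *Xist* and each library left out. Protein sequences were not used here.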

Additional observations from a re-analysis of the deposited data

How the results depend on the processing

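The fall of *Itga8* and *Itga1* kept its direction in all 17 alternatives each and passed the threshold in 15 of 16 tests. The exception was the fit to the 4 libraries with *Xist*, where 0 members were lower, against 2 as reported, and 0.00692% of all genes were called in either direction, with 2 libraries per genotype. There *Itga8* was at -1.60 and *Itga1* at -1.23. No member was higher in any fit. With each library left out the number lower was 2 throughout, in limma fits where the smaller genotype had 2 libraries. The median log2 fold change of all genes was 0.00 as deposited, 0.04 with library total scaling and 0.01 with upper quartile scaling.

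Genotype differences near 0 changed sign. *Itgav* was at 0.0195 with library total scaling (against -0.02 as reported) and between -0.0728 and 0.0509 with each library left out. *Itga5* was between -0.138 and 0.000888 and *Itgb3* between -0.12 and 0.35 with each library left out. Over the 4 libraries with *Xist*, *Itgb1* was at -0.0144 and *Itgb3* at -0.00807. With each library left out, the difference of the *Itga8* to *Itga6* ratio was between -1.66 and -1.31, that of *Itga8* to *Itga5* between -1.83 and -1.42, and that of the *Itga8* share between -9.10 and -6.30 percentage points.

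The replicate numbers are the only pairing in the labels. Deviations of same-numbered libraries correlated by 0.25, 0.11 and 0.08 across genes. Their mean was 0.15, against -0.07 for differently numbered libraries, so same-numbered libraries were somewhat more alike. The numbers were not taken as pairs in the main fit, and the fit with them as a block is given beside it. With the replicate block, 3 members were lower, as *Itgb5* had an adjusted *P* value of 0.0474 from limma at the same log2 fold change of -0.48, and 10.4% of all genes were called against 8.25% without it. The gene lists were compared by *Xist* after the data were seen. In the 4 libraries with *Xist* no listed gene was called lower, and the median log2 fold change was -1.34 for fibroblast markers, -1.32 for mural markers, -1.28 for collagens and -0.09 for endothelial markers, against -1.87, -1.76, -1.66 and 0.11 in the pair without. With *Xist* as a covariate 12 fibroblast and 12 mural markers, 7 collagens and 5 RGD-type ligands were lower, where 3.59% of all genes tested were. The number lower in the adhesion core went from 3 to 1. Leukocyte and epithelial medians changed direction, from 0.75 and 0.33 with *Xist* to -0.68 and -1.07 without. The alternatives for *Itga7* were added after its value was seen, and it passed in 13 of 16 tests. Depth in reads is unknown, so no counting error is given.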

Other observations

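The leukocyte integrin genes *Itgb2* and *Itgal* differed widely among *Atp6ap2* iECKO libraries. *Itgb2*, the beta subunit shared by leukocyte integrins, was at 595.9, 268.4 and 456.0 in control replicates 1 to 3 and at 845.0, 249.6 and 1082 in *Atp6ap2* iECKO replicates 1 to 3. *Itgal*, its partner in the receptor for ICAM-1, was at 825.3, 424.2 and 573.6 in controls and at 1189, 325.3 and 1474 in *Atp6ap2* iECKO libraries. The log2 fold change was 0.55 for *Itgb2* (95% interval from -0.67 to 1.77) and 0.50 for *Itgal* (from -0.71 to 1.72), so a genotype difference in either direction was not detectable with this spread. For both genes *Atp6ap2* iECKO replicates 1 and 3 were above all controls and replicate 2 below all controls. The 17 leukocyte markers summed to 14788, 8075 and 13568 in controls and to 16603, 6625 and 20500 in *Atp6ap2* iECKO libraries, with the same libraries highest and lowest. *Lyz2* was the most abundant of them, and *Ptprc*, which encodes CD45, was at 1461 ± 467 and 2021 ± 1075 (SD, n = 3 each). None of the 17 passed the limma test (0 at an unadjusted *P* value below 0.05), where 8.25% (23.9%) of all genes tested did.

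Of the 18 epithelial markers, all but *Scgb1a1* and *Foxj1* were highest in control replicate 3, where the list summed to 81211, against values from 31981 to 46270 in the other 5 libraries. *Epcam*, a defining epithelial surface marker, was at 317.7 there and between 111.0 and 152.3 elsewhere. *Itgb6*, an epithelial partner of αv, was at 480.1 there and between 170.1 and 316.8 elsewhere. Of the 18, 0 were lower and 1 was higher, where 8.25% of all genes tested passed in either direction. This was *Scgb1a1* of club cells, which was higher in *Atp6ap2* iECKO iLECs (263.7, 167.6 and 369.9 against 45.9, 73.3 and 125.3 in controls). This call was lost with *Xist* as a covariate (adjusted *P* = 0.0604 from limma), in the 4 libraries with *Xist* (0.125) and without the mean-variance trend (0.0952). It was also lost in all but 1 of the 6 fits with a library left out, which gave log2 fold changes between 1.40 and 2.11 (1.75 over all libraries). The value was 2.41 in the 4 libraries with *Xist* and 0.42 in the pair without. *Foxj1*, of ciliated cells, was lowest in control replicate 3, at 17.9 against 31.2 to 61.2 elsewhere.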
